A study of Mus musculus with 14 samples.

Results

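Otx2, Pou3f1, Fgf5, Zic2 and Sox4 are genes that the epiblast switches on as it leaves naive pluripotency, and the accessible chromatin around them was followed here while mouse ES cells were turned towards primitive endoderm (PrE). The question asked of these loci was whether moving cells out of inhibitor medium opened them in passing. Overlapping peaks of the 14 ATAC-seq libraries (1 bp or more in common) were joined into 124598 regions, and 92572 of these had their nearest protein-coding transcription start site (TSS) within 50 kb. A region belonged to one of the 5 genes when that nearest TSS was the gene's own, which gave 30 regions: 13 for Otx2, 9 for Sox4, 4 for Pou3f1, 2 for Fgf5 and 2 for Zic2. A region was either called as a peak or not called in a library, and each called peak carries a score.

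The cells were KH2 mouse ES cells, strain C57BL/6, with the transgene TRE:GATA6-DSREd2, a single copy that expresses GATA6 and a red fluorescent protein when doxycycline (Dox) is added. The 0 h libraries came from cells in serum-free medium with 2 inhibitors and LIF and without Dox. The libraries of 2, 4 and 8 h came from cells in serum medium with LIF and 1 µg/mL Dox, and those of 16, 24 and 48 h from cells that had Dox for 12 h and then serum medium without it. Each time point had 2 libraries of 50000 cells. All groups carry the transgene. There was no library of cells in serum that never had Dox, so the change of medium and the induction of GATA6 cannot be told apart between 0 h and any later time. The study states that its replicates were independent experiments, but neither it nor the labels say whether the libraries of a time point came from separate cultures, so p-values measure only the spread between these libraries, which may be in part technical.

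Naive ES cells resemble the epiblast before implantation, and inhibitors of MEK and GSK3 hold them there. Cells that leave this state pass through a formative state and then a primed one, in which they can respond to the signals of gastrulation. Otx2 and Pou3f1 (also known as Oct6) are transcription factors that drive this exit, Zic2 is a zinc finger factor that binds enhancers in the same transition, Sox4 is an HMG-box factor active in many progenitors, and Fgf5 is a secreted growth factor used as the classic marker of the epiblast after implantation. Otx2 is also known for its role in the visceral endoderm, a derivative of PrE.

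The libraries held 55588 to 65073 peaks each. The lists hold no read counts, so depth is unknown, and a region that is not called may still be accessible at a level the peak caller did not pass. Of the member regions called at a time point, 22.7% were called in only 1 of its 2 libraries, against 24.1% for all assigned regions. As a check of the cell type, promoters of ES cell markers were called in both 0 h libraries for 5 of 6 genes (Pou5f1, Sox2, Nanog, Esrrb and Zfp42, with Klf4 in 1 library) and in both 48 h libraries for 4 of 6, where Nanog was called in neither. PrE marker promoters were called in both 0 h libraries for 4 of 5 genes and at 48 h for 5 of 5. Promoters of trophectoderm markers were called in both 0 h libraries for 4 of 5 genes, and of fibroblast or feeder markers for 1 of 5. A called promoter does not mean an expressed gene, and the part of other cell types in the results was not tested.

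Of the regions whose calls or scores changed, 9 are shown as sequence, each as 200 bases around the midpoint of the region on the forward strand of GRCm38. Capitals mark the motifs searched on both strands, which were the GATA motif (AGATAA or AGATAG or TGATAA or TGATAG), OTX (TAATCC), the octamer (ATGCAAAT), AP-1 (TGAGTCA) and TCF/LEF (CTTTGAT). The Otx2 promoter and +30.3 kb regions and the Sox4 +11.5 and +14.8 kb regions are shown as a promoter whose calls differed between times, the region counted as open in passing and regions that rose with time. The others were added after their values had been seen, as examples of changes in calls or score, and regions with changes as clear, such as Otx2 -27.5 kb, are not shown. Distances are from the nearest annotated TSS of the gene, negative upstream and positive downstream.
Otx2 -42.9 kb region, chr14:48716620-48716819: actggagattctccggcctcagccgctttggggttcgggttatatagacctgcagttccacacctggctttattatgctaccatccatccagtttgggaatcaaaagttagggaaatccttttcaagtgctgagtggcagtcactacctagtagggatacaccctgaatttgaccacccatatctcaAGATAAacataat
Otx2 promoter region, chr14:48674420-48674619: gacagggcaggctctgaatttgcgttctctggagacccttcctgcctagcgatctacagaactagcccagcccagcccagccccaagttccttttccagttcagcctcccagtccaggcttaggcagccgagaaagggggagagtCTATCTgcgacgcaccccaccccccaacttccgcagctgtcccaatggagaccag
Otx2 +14.5 kb region, chr14:48648280-48648479: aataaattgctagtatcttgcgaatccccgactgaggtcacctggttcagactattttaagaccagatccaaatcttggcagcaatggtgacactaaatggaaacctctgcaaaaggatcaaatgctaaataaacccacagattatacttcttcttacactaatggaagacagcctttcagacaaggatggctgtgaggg
Otx2 +30.3 kb region, chr14:48632467-48632666: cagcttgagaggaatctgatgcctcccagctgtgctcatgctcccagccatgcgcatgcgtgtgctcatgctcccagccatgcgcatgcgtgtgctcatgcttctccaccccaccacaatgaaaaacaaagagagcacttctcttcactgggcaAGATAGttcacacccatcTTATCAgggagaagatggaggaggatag
Pou3f1 -11.6 kb region, chr4:124645076-124645275: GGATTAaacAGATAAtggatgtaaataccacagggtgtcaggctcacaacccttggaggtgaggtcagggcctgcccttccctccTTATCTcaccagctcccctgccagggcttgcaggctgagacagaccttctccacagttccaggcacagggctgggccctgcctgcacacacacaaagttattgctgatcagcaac
Sox4 -4.90 kb region, chr13:28958514-28958713: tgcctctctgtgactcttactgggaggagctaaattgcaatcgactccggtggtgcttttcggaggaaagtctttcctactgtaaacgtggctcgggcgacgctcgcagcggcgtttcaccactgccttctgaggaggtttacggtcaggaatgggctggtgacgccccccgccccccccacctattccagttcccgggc
Sox4 +11.5 kb region, chr13:28942092-28942291: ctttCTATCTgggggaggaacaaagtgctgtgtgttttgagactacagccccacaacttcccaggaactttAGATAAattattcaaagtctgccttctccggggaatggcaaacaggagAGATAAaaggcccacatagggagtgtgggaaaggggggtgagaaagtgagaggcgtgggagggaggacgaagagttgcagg
Sox4 +14.8 kb region, chr13:28938796-28938995: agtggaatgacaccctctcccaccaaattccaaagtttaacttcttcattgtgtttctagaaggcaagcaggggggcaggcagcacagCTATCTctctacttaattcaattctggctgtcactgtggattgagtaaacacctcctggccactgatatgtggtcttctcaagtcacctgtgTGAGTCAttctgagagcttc
Fgf5 +1.61 kb region, chr5:98255927-98256126: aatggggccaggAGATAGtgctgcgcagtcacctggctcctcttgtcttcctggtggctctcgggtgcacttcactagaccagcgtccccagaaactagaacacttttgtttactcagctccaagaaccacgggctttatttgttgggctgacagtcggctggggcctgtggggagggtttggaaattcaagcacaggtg
The Pou3f1 -11.6 kb window held a GATA match on each strand and an OTX match at its first base, and the Sox4 +11.5 kb window held 3 GATA matches. The +14.8 kb window of Sox4 was the only one of the 30 with an AP-1 match. No letters were in capitals in the Otx2 +14.5 kb and Sox4 -4.90 kb windows, which says only that these motifs were not in those 200 bases. Over the 30 member windows, a GATA motif was present in 15 (50%), an OTX motif in 3 (10%), the octamer in 2 (6.67%), AP-1 in 1 (3.33%) and TCF/LEF in 0. The same windows of all 92572 assigned regions held them in 32.8%, 5.67%, 1.93%, 8.67% and 3.23%. The 5 motifs do not contain one another, and a match describes the letters, not a bound site. The median GC content of the member windows was 54.2%, against 51.5% for all assigned regions.

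No member region was called in both libraries of 2 h and in neither of 0 h, although this count depended on single libraries. Of the 30 regions, 15 and 17 were called in the 0 h libraries and 15 and 16 at 2 h, and the means ranged from 15.5 ± 0.707 (SD, n = 2) at 2 and 48 h to 18 ± 1.41 at 4 h, 18 ± 2.83 at 16 h and 18 ± 0 at 24 h. A region was counted as gained when both libraries of a time point called it and neither 0 h library did, and as lost in the reverse case. At 2 h, 0 member regions were gained, against 8.09% of all assigned regions, and 1 was lost (3.33%), against 5.71%. Another 4 regions (Otx2 +30.3 kb, Pou3f1 -3.82 kb, Fgf5 promoter and Sox4 +11.5 kb) were called in 1 of the 2 libraries of 2 h and in neither of 0 h, a state that 6.25% of assigned regions had. The gained regions at 2 h numbered 2 without either replicate of 2 h, 1 without replicate 1 of 0 h and 1 with the 50000 highest-scoring peaks of each library. The lost ones numbered 4 without replicate 1 of 0 h and 2 without replicate 2 of 2 h. At 4, 8, 16, 24 and 48 h the gained regions numbered 1, 1, 2, 3 and 6, or 3.33%, 3.33%, 6.67%, 10% and 20% of the members, where all assigned regions gave 9.34%, 10.5%, 12.7%, 11.5% and 14.2%. Lost regions numbered 0, 1, 0, 1 and 4 at these times, against 6.53%, 8.56%, 8.31%, 11.4% and 14.8% of assigned regions. With 2 libraries on each side no exact test can go below p = 0.333, so these are counts without a test, and all of them rest on the same 2 libraries of 0 h. The map of calls shows all regions.

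**Figure D1:**
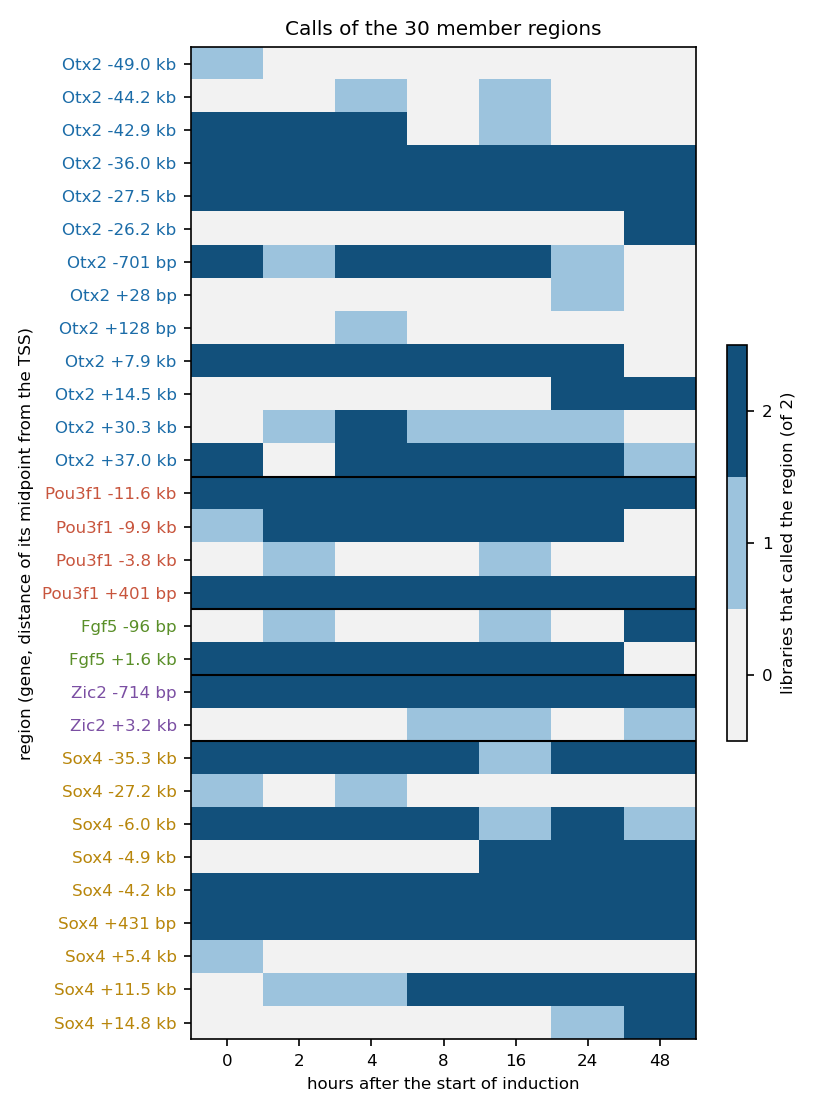
Calls of the 30 regions of the 5 genes (rows, named by gene and distance of the midpoint from the TSS) over the 7 time points (columns, hours). Grey, pale and dark cells stand for calls in 0, 1 and 2 of the 2 libraries. The 7 rows that are dark throughout are regions called in all 14 libraries, and the Sox4 -4.9 kb and Otx2 +14.5 kb rows turn dark from 16 h and 24 h onwards.

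By calls, few regions were open only in passing. A region was counted as transient when no 0 h or 48 h library called it and both libraries of a time point between did. Only 1 member region met this, the Otx2 +30.3 kb region (3.33%, against 12.7% of assigned regions), and its call was shared by both libraries at 4 h alone. The count was 3 without replicate 1 of 16 h, 2 without replicate 1 of 0, 2 or 24 h or either replicate of 4 h and with 50000 peaks, and 0 with a TSS within 20 kb. At the other end, 7 regions (23.3%, against 18.4% of assigned regions) were called in all 14 libraries: the promoter regions of Pou3f1, Zic2 and Sox4, the Otx2 -36.0 and -27.5 kb regions, the Pou3f1 -11.6 kb region and the Sox4 -4.25 kb region. The other 23 regions were called in 1 to 13 libraries. Of these, 4 were called in 1 library alone (13.3% of the members, against 16.9% of assigned regions). To test for a trend with time, the time ranks of the libraries that called a region were summed and compared with all choices of as many libraries, in an exact two-sided permutation test over the 79559 regions called in 2 to 12 libraries with Benjamini-Hochberg adjustment. Of the 18 member regions tested, 4 rose with time and 1 fell, or 22.2% and 5.56%, against 12.4% rising and 10.9% falling among the assigned regions tested. The falling regions numbered 3 without replicate 1 of 0 h, 4 without replicate 2 of 0 h and 2 without replicate 1 of 2 h, and the rising ones 2 without replicate 1 of 4 or 24 h or either replicate of 8 or 16 h.

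At Otx2, a homeodomain factor of the formative programme, distal regions changed in both directions. Its 13 regions spanned chr14:48625132-48723089, and its -49.0 to -26.2 kb regions lay in introns of the lincRNA gene Otx2os1, which runs upstream of Otx2 (ENSMUSG00000021848.16, chr14:48657677-48673819, minus strand). The -42.9 kb region (chr14:48716447-48716993) was called in each of the 6 libraries up to 4 h and later only in 1 library of 16 h. Its peak stood high in the score order at the start. The score percentile, which is the percentage of a library's peaks that score no higher than the region's best peak, was 88.3 and 81.8 at 0 h, 7.99 and 33.9 at 2 h, 42.8 and 54.9 at 4 h and 8.88 in the 1 library of 16 h. All 0 h values thus lay above all later ones. The region fell with time (exact permutation p = 0.0035, adjusted p = 0.021), and the call held without each of the 14 libraries in turn, with adjusted p from 0.0131 to 0.0338. Among the 12 libraries from serum medium alone, the same exact test gave an adjusted p of 0.0605.

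The Otx2 +14.5 kb region (chr14:48648028-48648732), in an intron of the lincRNA gene Gm49151, was called in 0 libraries up to 16 h and in all 4 libraries of 24 and 48 h. Its score percentiles were 12.4 and 36.4 at 24 h and 73.0 and 74.4 at 48 h, so the 48 h libraries ranked it above both of 24 h. The rise passed the exact test (p = 0.002, adjusted p = 0.013, and from 0.0148 to 0.0223 without each library). It also passed the exact test among the 12 serum libraries alone (adjusted p = 0.0254), a choice made after seeing the data, in which the basal medium was the same although Dox was withdrawn at 12 h. Upstream, the -26.2 kb region (chr14:48699868-48700167) was called only at 48 h, by both libraries, at the low percentiles of 20.1 and 6.03 (exact p = 0.022, adjusted p = 0.0541). Its rise passed only without either replicate of 0 h, with an adjusted p of 0.0388 at the lowest (exact test).

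Next to it, the Otx2 -27.5 kb region (chr14:48700809-48701842) was called in all 14 libraries but lost rank late. Its score percentiles were 96.6 and 89.8 at 0 h, 80.3 and 85.2 at 2 h, 90.4 and 95.7 at 4 h, 90.9 and 93.3 at 8 h and 89.4 and 87.1 at 16 h. They then stood at 58.9 and 70.6 at 24 h and at 36.9 and 42.8 at 48 h. The 24 h and 48 h values lay below all earlier ones. Scores of the 18809 regions called in all libraries were tested with an exact one-sided permutation test of the share of variance that lies between time points, over all 135135 ways of pairing 14 libraries, a test that was chosen after the scores had been seen. The share was 0.972 for the -27.5 kb region (exact p = 0.000511, adjusted p = 0.00667, and from 0.0093 to 0.0187 without each library). This test called 33.7% of the assigned regions that were called in all libraries, so a change in score by itself sets no region apart. Its other always-called region, at -36.0 kb (chr14:48709416-48710203), kept percentiles from 73.9 to 94.0 (exact test, adjusted p = 0.082).

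Near the TSS of Otx2, a promoter region (chr14:48673985-48675055, midpoint 701 bp upstream) was called in both libraries of 0, 4, 8 and 16 h, in 1 of 2 h, in 1 of 24 h and in 0 of 48 h. Its percentiles were 39.5 and 62.5 at 0 h, 16.8 in the 1 library of 2 h, 28.0 and 35.6 at 4 h, 38.4 and 30.1 at 8 h, 27.6 and 33.4 at 16 h and 12.4 in the 1 library of 24 h. The promoter was thus lost at 48 h by count, but its trend had an adjusted p of 0.216 (exact test). Another 2 small promoter regions over exons and UTRs were each called in 1 library. That with its midpoint 28 bp into a transcript was called at 24 h. That at 128 bp was called at 4 h and belongs to another annotated TSS inside the gene (chr14:48664806-48665150). Downstream of the gene, the +7.92 kb region (chr14:48654274-48655625) was called in all 12 libraries up to 24 h, at percentiles from 35.0 to 85.3, and in neither of 48 h (exact p = 0.022, adjusted p = 0.0541, and 0.0388 at the lowest without either replicate of 0 h, where the fall passed). The transient +30.3 kb region (chr14:48632326-48632809), between genes, was called in 1 library of 2 h, both of 4 h and 1 each of 8, 16 and 24 h, at percentiles from 6.29 to 39.4. The +37.0 kb region (chr14:48625132-48626659) was the only member region lost at 2 h: called in both libraries of 0 h at 5.37 and 32.8, it was called in neither of 2 h and again in both of 4 h, at 0.73 and 9.82. Its later percentiles were 20.9 and 6.12 at 8 h, 66.4 and 49.5 at 16 h, 20.3 and 31.3 at 24 h and 2.14 in the 1 library of 48 h. The ranks of 0 and 4 h are low. Whether the region lay near the limit of calling at 2 h was not tested. The -44.2 and -49.0 kb regions were called in 2 libraries and 1 library.

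At Pou3f1, the POU factor of the formative state, the clearest change was a rise by 2 h in the score of a region that was called throughout. Its -11.6 kb region (chr4:124644839-124645513) lies in an intron of the antisense gene Gm2164, upstream of Pou3f1 (ENSMUSG00000090125.3, chr4:124656807-124660655, plus strand), and was called in all 14 libraries. The score percentiles were 34.4 and 11.8 at 0 h and 92.0 and 93.1 at 2 h. They were then 98.7 and 98.8 at 4 h, 99.0 and 97.6 at 8 h, 99.0 and 98.7 at 16 h, 98.8 and 98.6 at 24 h and 92.8 and 92.2 at 48 h. Every induced library ranked the region at 92.0 or above, and both 0 h libraries ranked it below their middle. The lowest value of 2 h stood 57.6 percentile points above the highest of 0 h, and 48 of the 16993 assigned regions called in all libraries (0.282%) had a gap that large. The covered width was 369 and 373 bp at 0 h, 415 and 423 bp at 2 h and 531 to 663 bp from 4 h onwards. The exact test of the scores gave a share between times of 0.973 (p = 0.00229, adjusted p = 0.0144, and from 0.0122 to 0.0211 without each library). Most of the rise in rank lay between 0 h and 2 h, when cells entered both serum and Dox. The libraries of 4 h ranked the region above both of 2 h, the width grew mostly after 2 h, and the ranks of 48 h were back at those of 2 h.

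Over the 7 always-called member regions, 1 had higher scores at 2 h than at 0 h without overlap of the libraries, the Pou3f1 -11.6 kb region, and 2 had lower ones. Of the assigned regions called in all libraries, 21.5% and 27.0% did so. At 48 h the counts were again 1 higher and 2 lower, against 43.1% and 28.7%. The plot of score percentiles shows a selection of regions and leaves out others with changes as clear, such as the Sox4 promoter region.

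**Figure D2:**
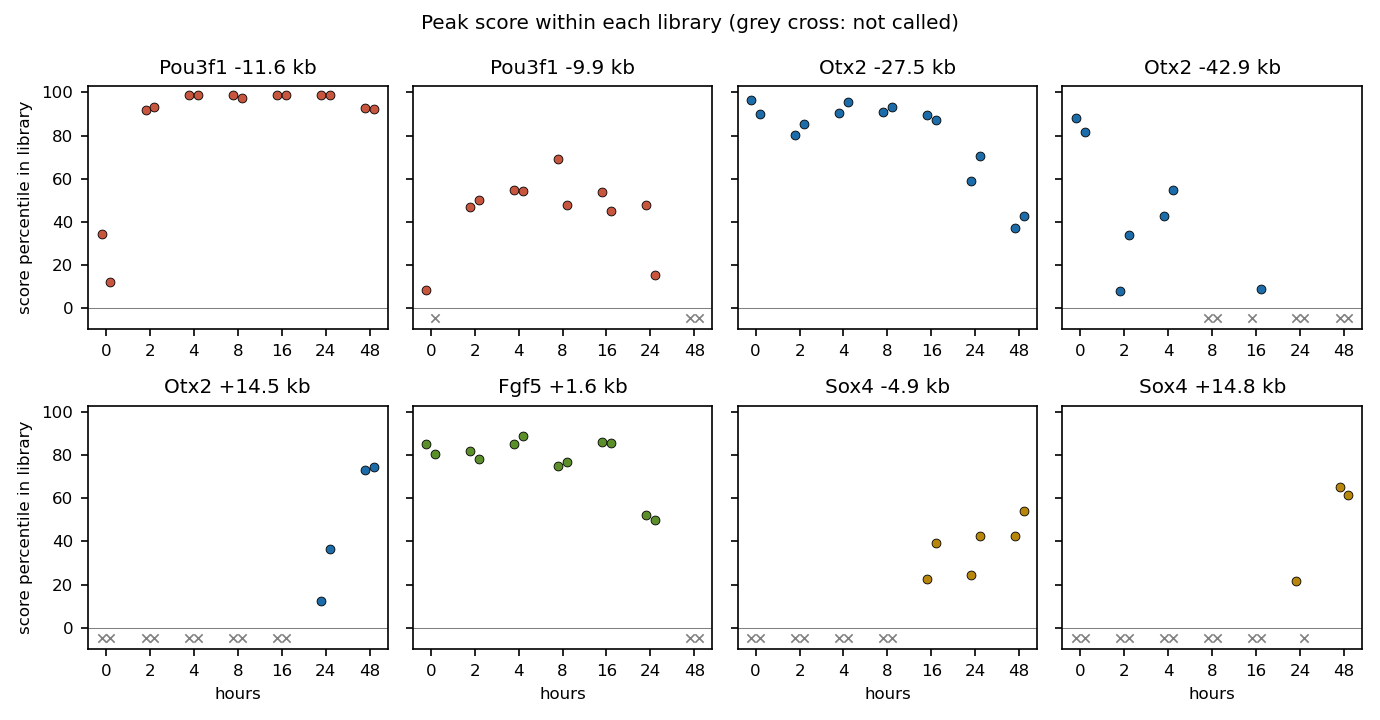
Score percentile of 8 member regions in each of the 14 libraries (y axis, percent of the library's peaks that score no higher) against time (x axis, hours). Each point is 1 library, and a grey cross below the line stands for a library that did not call the region. The Pou3f1 -11.6 kb region stood at 11.8 and 34.4 at 0 h and at 92.0 or above afterwards, and the Otx2 -27.5 kb and Fgf5 +1.6 kb regions dropped from 24 h.

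The neighbouring Pou3f1 -9.94 kb region (chr4:124646615-124647126), in the same intron, was called in 1 library of 0 h, in both of 2, 4, 8, 16 and 24 h and in neither of 48 h. Its percentile was 8.20 at 0 h, 46.8 and 49.9 at 2 h, 54.8 and 54.1 at 4 h, 69.1 and 47.5 at 8 h, 53.8 and 44.9 at 16 h and 47.8 and 15.0 at 24 h. The region was thus highest between the ends of the time course, but the 1 call at 0 h keeps it out of the transient class. Without replicate 1 of 0 h it was counted as gained at 2 h and as transient. The trend test, which looks for a steady rise or fall, gave an adjusted p of 0.571 (exact test). The -3.82 kb region was called in 1 library of 2 h and 1 of 16 h. The promoter region (chr4:124656724-124657693), over the first exon and UTR, was called in all libraries at percentiles from 19.1 to 73.4, which overlapped between 0 h and 48 h (exact test, adjusted p = 0.396).

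At Zic2, the zinc finger factor (ENSMUSG00000061524.8, chr14:122475435-122479852, plus strand), no region was gained, lost or transient, and none passed a test of calls or scores. Its promoter region (chr14:122473852-122475591) was called in all 14 libraries at percentiles from 40.3 to 74.0, and the libraries of 0 h, at 54.8 and 72.7, lay within the range of the later ones (exact test, adjusted p = 0.381). The covered width of this promoter region varied more. It was 1293 and 1399 bp at 0 h, 506 and 532 bp at 2 h, 310 and 1384 bp at 4 h, 407 and 271 bp at 24 h and 1213 and 1374 bp at 48 h. The region 3.22 kb into the gene, over coding sequence, was called in 1 library each of 8, 16 and 48 h, at percentiles of 21.1, 16.7 and 15.1.

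At Sox4, the HMG-box factor (ENSMUSG00000076431.4, chr13:28948919-28953713, minus strand), regions on both sides of the gene gained calls late in the time course. The -4.90 kb region (chr13:28958174-28959055), between genes, was called in 0 of the 8 libraries up to 8 h and in all 6 from 16 h. Its percentiles were 22.6 and 39.1 at 16 h, 24.6 and 42.6 at 24 h and 42.4 and 54.0 at 48 h. The calls of the early and late libraries did not overlap, and the rise passed the exact test (p = 0.000666, adjusted p = 0.013, and from 0.013 to 0.0185 without each library). Among the serum libraries alone the adjusted p was 0.0254. The +11.5 kb region (chr13:28941853-28942532) was called in neither library of 0 h, in 1 of 2 h and 1 of 4 h, and in all 8 libraries from 8 h, at percentiles from 11.3 to 56.6. It rose by the exact test over all libraries (adjusted p = 0.0451), but not without 10 of the 14 libraries in turn, where the adjusted p reached 0.0698, and the call held only without replicate 2 of 2 h, replicate 2 of 4 h and each replicate of 48 h. The +14.8 kb region (chr13:28938762-28939031) was called in 1 library of 24 h, at 21.5, and in both of 48 h, at 65.5 and 61.4. Its rise (exact test, adjusted p = 0.0451) held only without either replicate of 0 h, either of 2 h and replicate 2 of 24 h, and reached an adjusted p of 0.0932 among the other 9.

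Elsewhere at Sox4, regions that were called at the start changed in rank, each on its own course. The -35.3 kb region (chr13:28988688-28989403) was called in 13 libraries, and its percentile went down. It was 73.8 and 78.1 at 0 h, 74.0 and 63.3 at 2 h, 66.7 and 65.6 at 4 h and 60.9 and 38.8 at 8 h. The percentile was then 30.6 in the 1 library of 16 h, 11.6 and 32.0 at 24 h and 15.6 and 3.49 at 48 h. The -5.99 kb region was called in 12 libraries and stood higher early and lower late. Its percentiles were 50.7 and 48.8 at 0 h, 71.4 and 66.3 at 2 h, 65.8 and 77.0 at 4 h, 38.8 and 32.5 at 8 h, 54.7 in the 1 library of 16 h, 14.9 and 24.5 at 24 h and 34.9 in the 1 library of 48 h. All values of 2 and 4 h lay above both of 0 h, and those of 24 and 48 h below. The scores of these 2 regions were not tested, because the test took only regions called in all libraries.

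The always-called Sox4 -4.25 kb region, also upstream, stood highest at 4 h. Its percentiles were 26.7 and 42.4 at 0 h, 38.7 and 60.2 at 2 h, 60.5 and 72.2 at 4 h, 50.2 and 53.8 at 8 h, 31.1 and 34.2 at 16 h, 39.0 and 42.9 at 24 h and 15.7 and 18.3 at 48 h. The libraries of 4 and 8 h stood above both of 0 h, by 18.1 and 7.82 points, and those of 48 h stood 8.33 points below. A gap above 0 h as large as that of 4 h was found in 4.98% of the assigned regions called in all libraries. The exact test of the scores gave an adjusted p of 0.0265, which passed without 5 of the 14 libraries (either replicate of 0 h or 2 h, or replicate 1 of 4 h) and reached 0.0856 otherwise.

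The Sox4 promoter region (chr13:28952550-28954015), over the single exon of the gene, was at 57.9 and 61.5 at 0 h, 16.9 and 9.37 at 2 h and 47.9 and 43.7 at 4 h. It then stood at 47.4 and 21.8 at 8 h, 48.5 and 39.9 at 16 h, 23.6 and 31.1 at 24 h and 57.7 and 58.3 at 48 h. All values from 2 to 24 h thus lay below both of 0 h. Its values at 2 h lay 41.0 points below those of 0 h, a gap that 36 of 16993 assigned regions (0.212%) reached. At 24 h the gap was 26.9 points, which 1.75% reached. The exact test gave an adjusted p of 0.0316, which passed without only 2 of the 14 libraries (either replicate of 8 h) and reached 0.0835 otherwise. Its values of 48 h overlapped those of 0 h. The covered width of this region was 728 and 676 bp at 0 h and 787 and 724 bp at 2 h, so it did not shrink with the rank. The -27.2 and +5.43 kb regions were called in 2 libraries and 1 library.

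At Fgf5, the secreted ligand (ENSMUSG00000029337.2, chr5:98254184-98277030, plus strand), by count 1 region was lost and the other gained at 48 h. The +1.61 kb region (chr5:98255711-98256344), in an intron, was called in all 12 libraries up to 24 h and in neither of 48 h. Its percentiles were 85.2 and 80.8 at 0 h, 81.9 and 78.5 at 2 h, 85.3 and 88.9 at 4 h, 75.1 and 76.9 at 8 h, 86.4 and 85.8 at 16 h, and 52.1 and 49.9 at 24 h. The loss of rank at 24 h came before the loss of the call. The promoter region (chr5:98253917-98254715), over the first exon, its UTR and coding sequence, was called in both libraries of 48 h at 28.7 and 14.4, and before that in 1 library of 2 h at 5.56 and 1 of 16 h at 6.17. Neither trend passed over all libraries (exact tests, adjusted p = 0.0541 for the intron and 0.328 for the promoter). The fall of the intron region passed without either replicate of 0 h, with an adjusted p of 0.0388 at the lowest (exact test).

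The number of called regions of a gene sums these changes. Otx2 had 6 and 7 called regions at 0 h, 5 and 5 at 2 h, 8 and 8 at 4 h, 5 and 6 at 8 h, 6 and 7 at 16 h, 6 and 7 at 24 h and 4 and 5 at 48 h. Pou3f1 had 3 and 2 at 0 h, 3 and 4 at 2 h, 3 and 4 at 16 h, 3 in each library of 4, 8 and 24 h, and 2 and 2 at 48 h. Sox4 had 4 to 6 in each library up to 16 h and 6 or 7 at 24 and 48 h. Fgf5 and Zic2 had 1 or 2 throughout. At Otx2 both libraries of 4 h stood above all others, and at Pou3f1 both libraries of 48 h stood at or below all others.

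**Figure D3:**
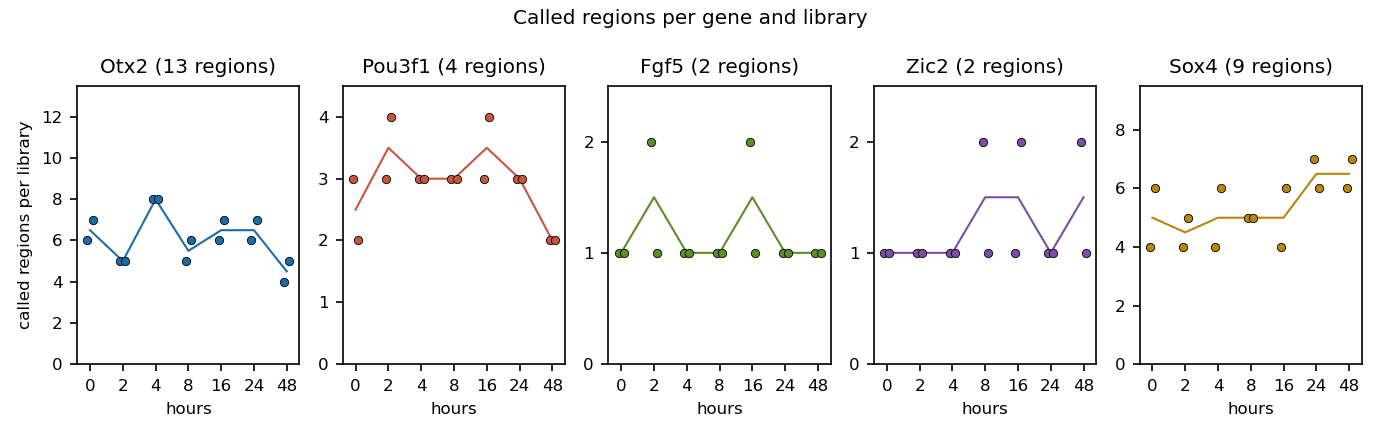
Number of called regions of each gene (y axis) in each of the 14 libraries against time (x axis, hours), with points for libraries and a line through the mean of the 2 libraries of each time. Otx2 was highest at 4 h (8 in both libraries) and lowest at 48 h (4 and 5), Pou3f1 fell to 2 at 48 h, and Sox4 was highest at 24 and 48 h (6 or 7).

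The share of variance between times in these counts was tested with the same exact pairing test over 11701 genes with at least 3 regions. It was 0.868 for Otx2 (exact p = 0.0155, adjusted p = 0.0842), 0.696 for Pou3f1 (adjusted p = 0.368) and 0.507 for Sox4 (adjusted p = 0.594), so 0 of the 3 genes tested passed, where 6.27% of all genes did. Pou3f1 could not have passed, because its small and mostly equal counts allow no exact p as low as that of Otx2. Fgf5 and Zic2 had too few regions to be tested. To ask directly about opening in passing, the mean of the 10 libraries of 2 to 24 h was compared with that of the 4 libraries of 0 and 48 h, in an exact two-sided permutation test over all 1001 choices of libraries. Pou3f1 had 3.20 called regions between the ends and 2.25 at the ends, a difference of 0.95 (exact p = 0.00899, adjusted p = 0.255). Otx2 had 6.30 and 5.50, a difference of 0.8 (exact p = 0.341, adjusted p = 0.801), and Sox4 had 5.20 and 5.75, a difference of -0.55 (p = 0.438, adjusted p = 0.871). No gene of the genome passed this contrast (0%), with a smallest adjusted p of 0.117 and with 1411 of 11701 genes at an unadjusted p under 0.05. The smallest p that the 1001 choices allow is 0.000999, so the contrast can pass only where many genes change alike.

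The same counts were taken for 3 other lists of genes. The 13 further formative and primed genes (Dnmt3a, Dnmt3b, Tcf15, Lef1, Etv4, Etv5, Foxd3, Grhl2, Sall2, Sox3, Utf1, Zic5 and Cdh2) had 162 regions, of which 10 (6.17%) were gained and 11 (6.79%) lost at 2 h, 20 (12.3%) gained and 35 (21.6%) lost at 48 h and 16 (9.88%) transient. None of the 13 passed the time test per gene, with Foxd3 nearest at an adjusted p of 0.0547. The 12 naive pluripotency genes had 198 regions, with 15 (7.58%) gained and 14 (7.07%) lost at 2 h and 36 (18.2%) gained and 41 (20.7%) lost at 48 h, and Esrrb lost most, 12 of its 36. The 12 PrE genes had 185 regions, of which 16 (8.65%) were gained and 9 (4.86%) lost at 2 h and 71 (38.4%) gained and 17 (9.19%) lost at 48 h, and 7 of the 12 passed the time test, Foxa2 with the largest share between times (0.990, exact test, adjusted p = 0.0375). No gene of the genome, these 7 included, passed with the replicate block, within 20 kb or without a minimum number of regions. At 2 h the 5 members thus had the lowest percentages gained and lost of these lists, over only 30 regions, and the differences between lists were not tested.

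**Figure D4:**
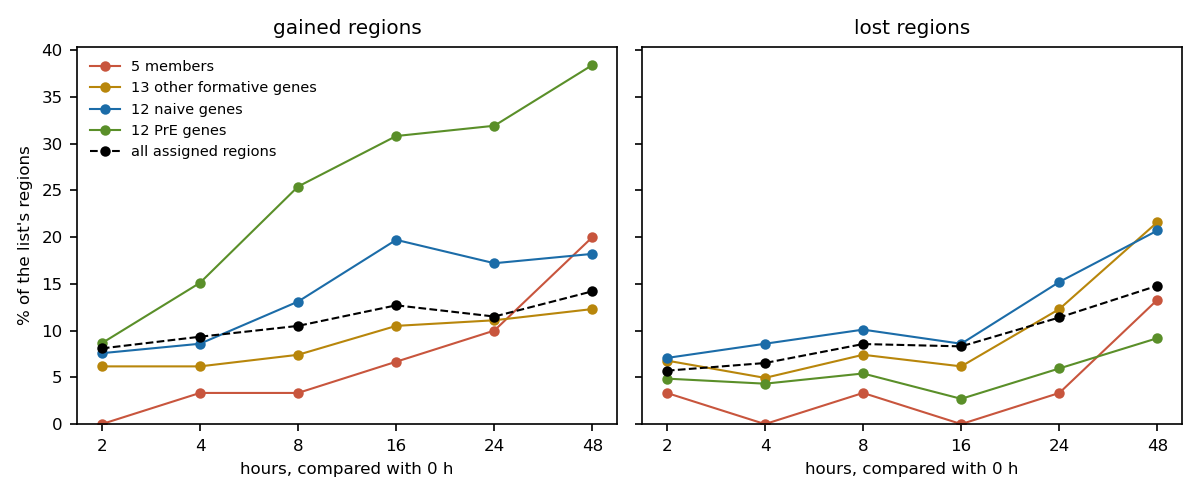
Percentage of each list's regions (y axis) gained or lost against 0 h at each later time (x axis, hours), for the 5 members (30 regions), 13 other formative genes (162), 12 naive genes (198), 12 PrE genes (185) and all 92572 assigned regions (dashed). All points share the 2 libraries of 0 h. Gains at PrE genes rose from 8.65% at 2 h to 38.4% at 48 h, while the members had 0% at 2 h and 20% at 48 h.

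Genes whose number of called regions ran most like that of a member were found by Pearson's r over the 14 libraries among 7445 genes with at least 5 regions, as a description. Among them were Gm49510 (0.836), Cux1 (0.824) and Heatr6 (0.798) for Otx2, Nemp2 (0.902), Tspoap1 (0.893) and Mlph (0.855) for Pou3f1, and Hrg (0.913) and Yeats4 (0.862) for Sox4. For Fgf5 they included Aprt (0.743) and Rxfp2 (0.702), and for Zic2 Il13 (0.826), Prps1 (0.785) and Pitpnm2 (0.755). The points share libraries and are small whole numbers, and the highest of so many coefficients is high in any case.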

How the data were processed

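ATAC-seq peaks of 14 libraries (7 time points, 2 libraries each) were taken as the authors deposited them, 1 list per library, with a score of unstated scale for each peak. Per the study's methods and the file labels, reads were processed with the ENCODE ATAC-seq pipeline, and peaks were kept that passed an IDR threshold of 0.05 on pseudoreplicates of the library and lay outside blacklisted regions of mm10 (GRCm38). Replicates were not pooled. The lists hold no read counts, so the study's read-count test could not be run and depth is unknown.

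Here peaks were merged on overlap of at least 1 bp and assigned to the nearest protein-coding TSS of GENCODE within 50 kb. No region ended past its chromosome in GRCm38. Promoter regions had their midpoint within 1 kb of a TSS. Regions described singly were the members' promoter regions, the transient regions, those that passed the trend test and those gained or lost at 2 or 48 h, and always-called or other regions that are described were chosen after their values were seen. Naive, PrE and other formative genes were named only at the extreme of a value. Some genes of these lists and comparisons are not reported here. All tests were exact permutation tests over libraries, across all genes or regions, with Benjamini-Hochberg adjustment at 0.05. Each library was left out in turn, and peak number, coverage, distance, gene type, merging and counting were varied. The tests were checked on simulated data. An even rise of the called share in 200 of 11701 genes was recovered for 92.5% of them, but the time test recovered 0 of 200 and 0 of 2000 genes whose share took only 2 levels. The contrast recovered 0 of 200 and 2000 of 2000 changed genes, and the trend test 78.2% of 30000 changed regions. The even rise, from nearly no to nearly all regions called, was set only in genes with more regions than any member has. In the 2-level and contrast runs the changed genes had more regions than Sox4 or Pou3f1. These shares thus do not measure recovery at genes with as few regions as the members. The members and lists were chosen with earlier results of these data known. Sequences were read from the RefSeq assembly of GRCm38. Python 3.11.15, numpy 2.4.6, pandas 2.3.3 and matplotlib 3.10.9 were used.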

Additional observations from a re-analysis of the deposited data

How the results depend on the processing

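The depth of the libraries is unknown, a call depends on the peak caller's threshold, and 22.7% of the member regions called at a time point were called in 1 of its 2 libraries, so single calls are uncertain. Pairs of time points were not tested. The score percentile is a rank within a library and moves when other peaks change.

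The calls per gene kept their side of the threshold under all alternatives run, and the contrast kept its direction. Keeping that side says little, because no gene of the genome passed the contrast under any alternative. The same held for the time test without a minimum, within 20 kb and with the replicate block. In called regions, the Pou3f1 contrast was largest with 50000 peaks, a difference of 1.35 (exact p = 0.000999, the smallest allowed, adjusted p = 0.095). Over the fits that each left out 1 library, the share between times ranged from 0.832 to 0.894 for Otx2, 0.625 to 0.797 for Pou3f1 and 0.431 to 0.628 for Sox4, and the contrast from 0.3 to 1.30, 0.861 to 1.20 and -1.13 to -0.133. The smallest adjusted p of the time test was 0.0602 for Otx2, 0.0717 for Pou3f1 and 0.209 for Sox4. Otx2 had no value with the nearest TSS of any gene type, which left it under 3 regions. Fgf5 and Zic2, tested only without a minimum number of regions, had an adjusted p of 1.

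Counts of member regions moved more. With the 50000 highest-scoring peaks of each library, 1 region was gained at 2 h, 2 were transient and 3 fell. With at least 50% of a region covered, 2 fell. With a TSS within 20 kb, 0 were lost at 2 h and 0 were transient. With the nearest TSS of any gene type, 0 were lost at 2 h, 2 gained and 1 lost at 48 h, and 0 transient. With a TSS within 100 kb, tried after seeing the data, 1 was gained and 2 were lost at 2 h, 7 lost at 48 h and 3 transient. In the serum libraries alone, also tried after seeing the data, 2 rose and 0 fell by the exact test. With covered base pairs in place of scores, 2 of the 7 always-called member regions passed, against 4 with scores. The score test passed 33.7% of all assigned regions called in all libraries, and the share for covered base pairs is not given. Leaving out each library gave 2 to 4 rising, 1 to 4 falling, 0 to 2 gained and 1 to 4 lost at 2 h, 6 to 7 gained and 4 to 7 lost at 48 h, 1 to 3 transient and 2 to 3 with changed scores. The cause of these moves was not tested, apart from distances and gene types, which change the number of regions by construction.

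The genes of the genome past the time test numbered 734, against 3689 with covered base pairs, 1607 with 50000 peaks, 234 with 50% covered, 1231 within 100 kb, and 0 without a minimum, within 20 kb or with the replicate block. These 3 settings had 4521, 2878 and 3418 genes at an unadjusted p under 0.05 by the same exact test, and the smallest p of the block is 0.000198.

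Region by region, deviations of same-numbered libraries were hardly correlated, from -0.0152 to 0.0124 over 21 pairs of time points. This measure cannot see a shift of a whole library. Replicate 2 had more peaks than replicate 1 at each time point. The difference was largest at 2 h, 61988 against 58322, and smallest at 8 h, 61403 against 61393. At 0 h the numbers were 60483 against 56924. With a replicate block the adjusted p was 0.113 for Otx2, 0.415 for Pou3f1 and 0.415 for Sox4, 3 regions rose, 1 fell and 3 had changed scores.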
